A study of Gallus gallus with 28 samples.

Results

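SREBF1, NR1H3 and THRSP are 3 regulators of fatty acid synthesis, and they were examined here in livers of chickens of a fat and a lean line. They were taken as the spots whose symbol in the array's probe annotation is one of these 3 names, which gave 18 of 618 named spots, 6 of 206 named printed positions and 3 of 142 named genes. The array was a glass slide printed with cDNA clones, on which the sample (dye Cy5) competed with a common reference (dye Cy3) for each spot. The samples were 10 pools of poly(A)+ RNA, 5 of the fat line (pools 6 to 10) and 5 of the lean line (pools 1 to 5). Each pool held the livers of 4 chickens, and the reference was RNA of all 10 pools. Pools 3 and 8 had 2 arrays each and the other 8 pools had 3, which made 28 arrays. The labels name the line and the pool only, with no age, sex, diet or feeding state, and they name no treatment. Individual chickens cannot be seen within a pool, and the breeding of the lines is not described in the sources used here.

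SREBF1 encodes SREBP-1, a membrane-bound transcription factor that, once cleaved, switches on the genes of fatty acid synthesis. NR1H3 encodes liver X receptor alpha, a nuclear receptor for oxysterols that induces SREBF1 in mammals, and THRSP is a small nuclear protein of lipogenic tissues that thyroid hormone induces. In birds the liver, more than adipose tissue, is the site where new fatty acids are made. Their known targets or partners in the pathway include acetyl-CoA carboxylase (ACACA), fatty acid synthase (FASN), stearoyl-CoA desaturase (SCD), the elongase ELOVL6 and the desaturase FADS2. Below, a lipogenic target is a gene of the list used, whether or not each regulator acts on it.

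All values below are the authors' log2 ratios, read as likely sample over reference. The direction is not stated, and if it were the reverse every fat minus lean difference would change sign while correlations would not. One pair of arrays, the first of fat pool 6 and the second of lean pool 3, correlated at -0.312 over 426 spots, and 2 of 378 pairs lay under -0.3. Each array had between 450 and 741 filled spots of 1728, so much of the table is missing. A ratio to a reference of the same livers shows no level, so the tissue could be checked only by which spots were filled. Of the hepatocyte markers, APOB was filled on 25 of 28 arrays, GC in 45 of 56 and AHSG in 13 of 28 array values, APOA1 in 23 of 252 and ALB in 0 of 28. No marker of adipocytes, stroma, leukocytes or erythrocytes from the lists used was on the array. In bulk liver, fewer cells of a type and less RNA per cell cannot be told apart.

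The 3 regulators differed in how well they were measured. SREBF1 was printed as the same cDNA at 3 positions, in blocks 3, 15 and 16 of the slide, THRSP as the same cDNA in blocks 3 and 10, and NR1H3 once, in block 16. Each position is 3 spots on 28 arrays, or 84 possible values. THRSP had 77 values in block 3 and 74 in block 10. NR1H3 had 44 values. SREBF1 had 38, 53 and 20 values in blocks 3, 15 and 16, so its position in block 16 was filled in 23.8% of cases. Values were averaged over spots, then arrays, then positions.

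The share of filled spots overlapped between the lines. SREBF1 was filled in 47.4% ± 17.3 of its spots in fat pools and in 41.1% ± 21.6 in lean pools (SD, n = 5 each, exact permutation p = 0.643, two-sided). For NR1H3 the shares were 52.2% ± 27.1 in fat pools and 55.6% ± 19.2 in lean pools (SD, n = 5 each, exact permutation p = 0.857). THRSP was filled in 92.2% ± 6.33 of spots in fat pools and 87.2% ± 8.24 in lean pools (SD, n = 5 each, exact permutation p = 0.437). Some pools rested on very little: the SREBF1 and NR1H3 values of lean pool 4 came from 1 of its 3 arrays (the third), and the NR1H3 value of fat pool 7 from 1 spot.

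SREBF1, the transcription factor, was the regulator with the widest gap between the lines, but its 3 positions did not give the same picture. In block 16 the fat pools 6, 8 and 10 had log2 ratios of 0.59, 0.41 and 0.68, against 0.04, -0.27, -1.04 and -0.38 in the lean pools 1, 2, 4 and 5. All measured fat pools lay above all lean pools there, which held for 5 of the 297 clones tested (1.68%). With 3 fat and 4 lean pools such a separation arises more easily than in the 232 clones that had all 10 pools. The difference was 0.97 (standard error 0.26, 95% interval 0.37 to 1.58), or 1.96-fold, and did not pass (limma adjusted p = 0.239). It rested on 20 spot values. Single arrays of the lines overlapped, since lean pool 1 had an array at 0.81 beside others at -0.27 and -0.42, while the 4 fat arrays lay between 0.39 and 0.96. Without lean pool 4, which had 1 spot value there, the difference was 0.76, and without lean pool 1 it was 1.12. With arrays as observations it was 0.89, and 0.45 with the array number added as a replicate block. With medians of arrays it was 1.05.

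In block 15 the fullest SREBF1 position gave -0.04, 0.02, -0.02, 0.21 and 0.22 in fat pools 6 to 10, against 0.02, -0.83, -0.11, -0.09 and -0.47 in lean pools 1 to 5. The fat pools were close together and the lean pools spread downward, with lean pool 1 inside the fat range. The difference was 0.37 (standard error 0.17, 95% interval -0.01 to 0.75, limma adjusted p = 0.524). Lean pool 2 carried part of it, with 2 of its 3 arrays at -1.24 and -1.30 and the other at 0.04, and without this pool the difference was 0.24. With first arrays alone, which have no value in block 15 for lean pools 4 and 5 and fat pool 10, it was 0.14.

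In block 3 the lines overlapped throughout. The fat pools 6 to 10 had 0.65, -0.46, 0.22, 0.39 and -0.09, against 0.08, 0.07, 0.26, -0.12 and 0.34 in lean pools 1 to 5. The highest and the lowest pool were both of the fat line. The difference was 0.02 (standard error 0.20, 95% interval -0.43 to 0.47, limma adjusted p = 0.982), and its sign turned without pool 4, 6, 8 or 9.

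Averaged over positions, SREBF1 stood at 0.40, -0.22, 0.20, 0.30 and 0.27 in fat pools 6 to 10, against 0.05, -0.34, 0.07, -0.42 and -0.17 in lean pools 1 to 5. Fat pool 7 lay below lean pools 1, 3 and 5, and the other fat pools lay above every lean pool. Fat pools 7 and 9 and lean pool 3 had no value in block 16, so their averages rest on the other positions. The average of fat pool 7 came from 6 of 27 spot values, among them a block 3 spot at -1.11. The means were 0.19 ± 0.24 in fat pools and -0.16 ± 0.22 in lean pools (SD, n = 5 each). The difference was 0.35 (standard error 0.16, 95% interval 0.00 to 0.70) and did not pass (limma adjusted p = 0.549). With first arrays alone, which have no SREBF1 value for lean pools 4 and 5, it was -0.05 over 5 fat and 3 lean pools.

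NR1H3, the oxysterol receptor, was read from a single position. Its log2 ratios were 0.07, 0.61, 0.01, -0.13 and 0.18 in fat pools 6 to 10, against 0.36, -0.18, 0.67, -0.12 and -0.50 in lean pools 1 to 5. The lean line held both the highest and the lowest pool. The means were 0.15 ± 0.28 in fat pools and 0.05 ± 0.46 in lean pools (SD, n = 5 each). The difference was 0.10 (standard error 0.23, 95% interval -0.41 to 0.62, limma adjusted p = 0.866), and its sign turned without lean pool 5 (-0.03) or fat pool 7 (-0.01). Without lean pool 3 it was 0.26.

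THRSP, the lipogenic nuclear protein, was the best filled of the 3 and showed no separation of the lines. In block 10 it read -0.80, 0.13, 0.30, 0.04 and -0.04 in fat pools 6 to 10, against 0.15, -0.46, -0.39, -0.64 and -0.20 in lean pools 1 to 5. Fat pool 6 was the lowest of all, and lean pool 1 lay among the higher fat pools. The difference there was 0.23 (standard error 0.22, 95% interval -0.26 to 0.72, limma adjusted p = 0.695), between 0.14 without fat pool 8 and 0.41 without fat pool 6. It was 0.02 with medians of arrays, 0.10 with first arrays and 0.12 with quantile normalization. With second arrays, which have no value there for fat pool 6, it was 0.58.

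In block 3 the same THRSP cDNA read -0.21, -0.02, 0.33, 0.30 and -0.14 in fat pools 6 to 10, against -0.14, 0.12, 0.83, -0.31 and 0.08 in lean pools 1 to 5. Here lean pool 3 was the highest and lean pool 4 the lowest. The difference was -0.06 (standard error 0.21, 95% interval -0.54 to 0.41, limma adjusted p = 0.935), and it was 0.11 without lean pool 3. Averaged over both positions, THRSP was at -0.01 ± 0.31 in fat pools and -0.09 ± 0.25 in lean pools (SD, n = 5 each). That difference was 0.09 (standard error 0.18, 95% interval -0.32 to 0.49, limma adjusted p = 0.858), which turned to -0.01 without lean pool 4.

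**Figure D1:**
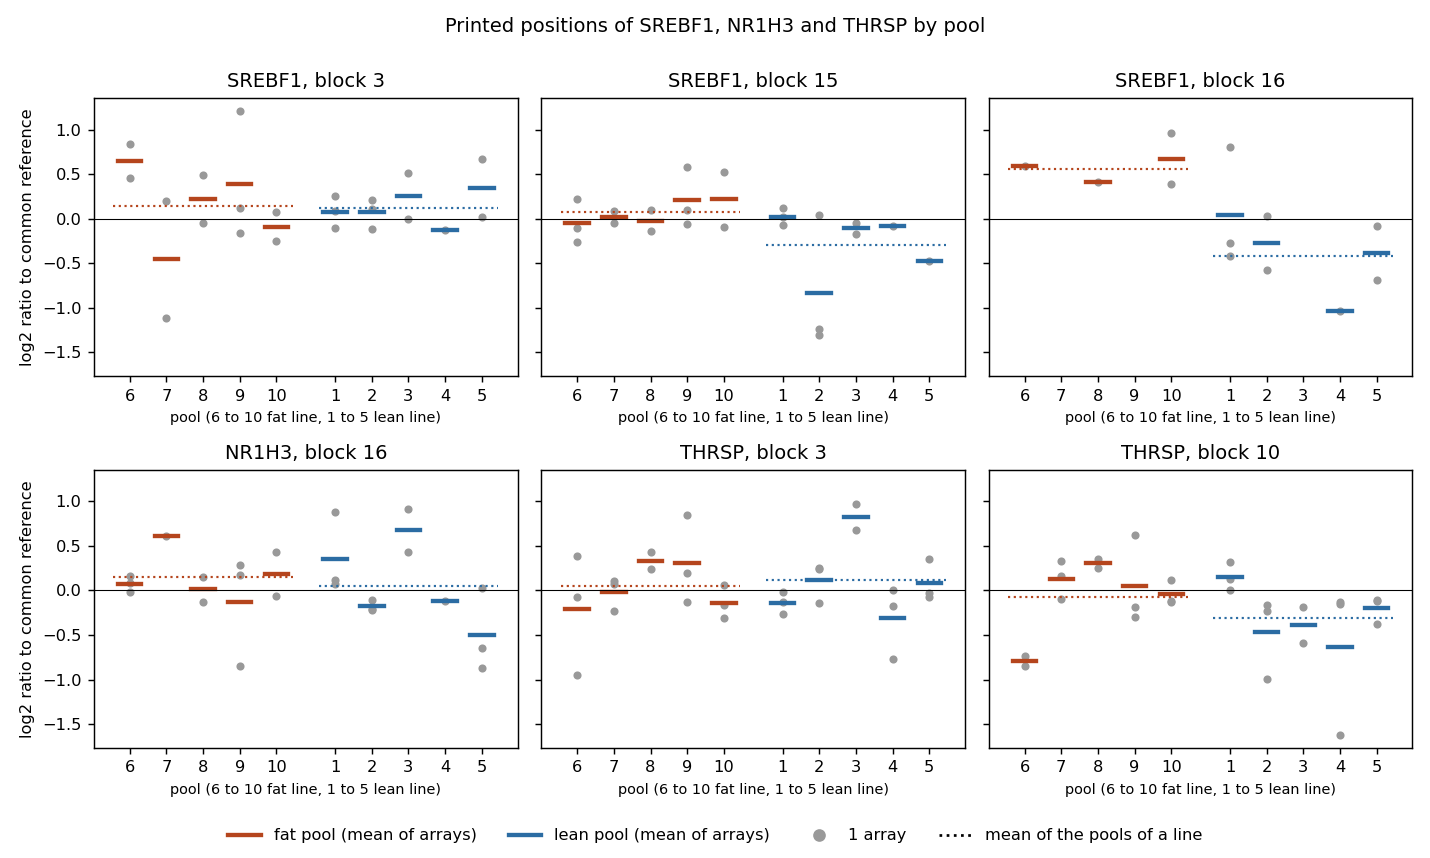
Log2 ratio to the common reference (y axis) at each printed position of SREBF1, NR1H3 and THRSP in fat pools 6 to 10 and lean pools 1 to 5 (x axis), with bars for pools, grey points for single arrays and dotted lines for the mean of the pools of a line. The fat and lean pools are apart only for SREBF1 in block 16, where 3 fat and 4 lean pools have a value.

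Over the whole array, 0 of 297 clones (0%) and 0 of 110 genes (0%) passed limma's adjusted p of 0.05 between the lines. At an unadjusted p under 0.05 there were 28 clones (9.43%) and 10 genes (9.09%). Of the 6 positions of the regulators 1 was among these 28 clones, SREBF1 in block 16, and of the 3 regulators SREBF1 was among the 10 genes. NR1H3 and THRSP were not.

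Several enzymes of the lipogenic list gave larger differences than the regulators themselves, though none passed and enzymes were not tested against regulators. Of 17 lipogenic target genes listed, 9 were on the array, all 9 could be tested, and 5 were higher and 4 lower in the fat line, with 0 passing. The median difference was 0.30, against 0.03 over all 110 genes, of which 60 were higher and 50 lower in the fat line. SCD, which makes monounsaturated fatty acids, differed by 0.74 (standard error 0.25, limma adjusted p = 0.361). FASN, which builds palmitate, differed by 0.68 (standard error 0.20, limma adjusted p = 0.252), and ACACA, which makes its malonyl-CoA, by 0.50 (standard error 0.22, limma adjusted p = 0.549). FADS2 differed by 0.43 and ELOVL6 by 0.30. PNPLA3, a lipid droplet acylhydrolase that SREBP-1 induces in mammals, differed by -0.48 (standard error 0.21, limma adjusted p = 0.549). GPAM, of glycerolipid synthesis, was at -0.08, PGD, of the pentose phosphate pathway, at -0.15 and TALDO1, of the same pathway, at -0.01.

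**Figure D2:**
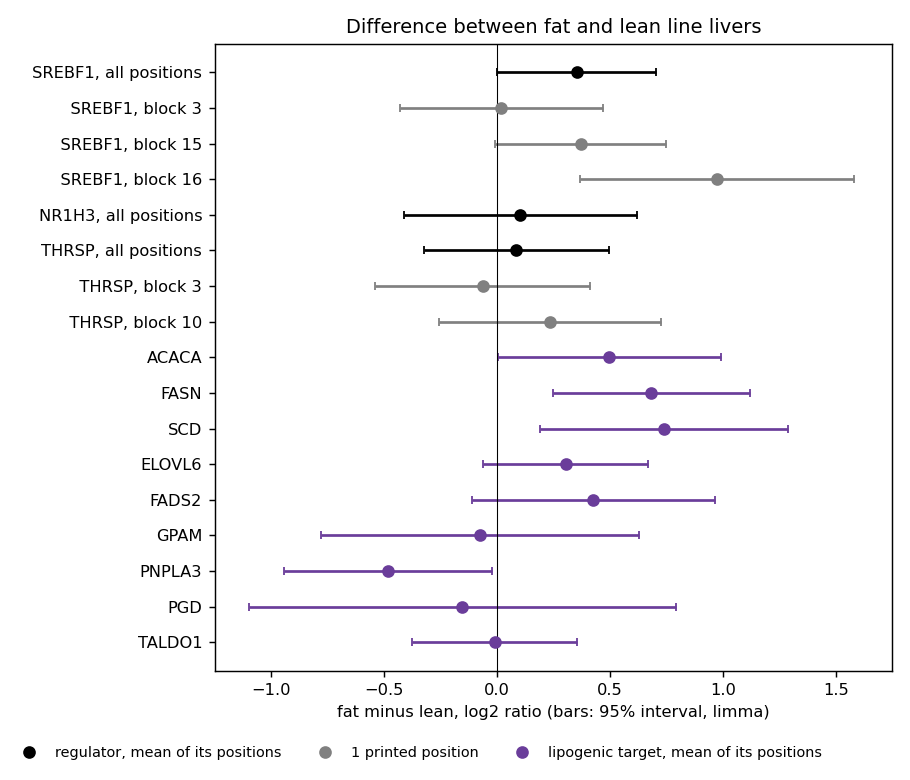
Fat minus lean difference in log2 ratio (x axis) with its 95% interval from limma for the 3 regulators, the printed positions of SREBF1 and THRSP, and 9 lipogenic target genes (y axis). The SREBF1 positions run from 0.02 in block 3 to 0.97 in block 16, and the intervals of NR1H3 and THRSP lie across 0.

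Neighbouring pathways could be read only in part. The array held 0 of 8 listed liver X receptor targets, such as ABCA1 and LPCAT3. It held 0 of 5 listed genes of SREBP processing, such as INSIG1 and SCAP, so none of these listed genes was measured. SREBF1 itself, which the receptor induces in mammals, was on the array. Of 14 other transcription factors of liver lipid and hormone response, 6 were tested, 4 higher and 2 lower in the fat line, with a median of 0.02 and 0 passing. SREBF2, which drives cholesterol synthesis, was at -0.19 (limma adjusted p = 0.779), PPARA, which drives fatty acid oxidation, at 0.69 (limma adjusted p = 0.703) and the thyroid hormone receptor THRA at -1.48 (limma adjusted p = 0.692), where the highest lean pool read 6.76 and the fat pools lay between -0.14 and 0.08. RXRG, a partner of nuclear receptors, was at 0.02, USF1 at 0.03 and NR5A2 at 0.07.

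Cholesterol synthesis had 3 of 11 listed genes, 2 higher and 1 lower in the fat line, with a median of 0.22 and 0 passing. These were HMGCS1, an early enzyme of the pathway, at 0.29, the cholesterol transfer protein STARD4 at 0.22 and lanosterol synthase LSS at -0.05. Fatty acid oxidation had 3 of 8, again 2 higher and 1 lower, with a median of 0.16 and 0 passing. The carnitine palmitoyltransferase CPT2 was at 0.95 (standard error 0.46, limma adjusted p = 0.566), catalase CAT at 0.16 and the thiolase ACAT1 at -0.14.

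Because SREBF1 and THRSP were each printed more than once, the array holds its own measure of how well they were read. Across the 10 pools SREBF1 in block 3 and in block 15 had a Pearson r of -0.0773 (permutation p = 0.820) and a Spearman rho of -0.115 (permutation p = 0.758). On the 20 arrays with both, 14 had opposite signs. Over the 7 pools with block 16, that position had r of 0.466 with block 15 (exact permutation p = 0.303, rho 0.714 with exact permutation p = 0.0881) and of 0.392 with block 3 (exact permutation p = 0.391, rho 0.25 with exact permutation p = 0.595). The 3 positions thus did not order the pools alike.

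THRSP in block 3 and block 10 had r of 0.208 (permutation p = 0.577) and rho of 0.394 (permutation p = 0.263), with opposite signs on 15 of 27 arrays. The root mean square difference between the positions on the same array was 0.59, above the spread between spots of a position, which was 0.21 in block 3 and 0.32 in block 10. Fat pool 6 was low at both positions, lean pool 4 also, and lean pool 3 was high in block 3 only.

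The enzymes printed more than once, whose positions were paired by gene symbol and not by cDNA, had higher values. FASN had r of 0.565 between its positions in blocks 3 and 7 (permutation p = 0.0659, rho 0.794 with permutation p = 0.00870), and SCD 0.969 between a pair of positions in block 3 (permutation p = 4.0e-05, rho 0.939 with permutation p = 0.000220). Opposite signs were seen here too, on 8 of 27 arrays for FASN and on 8 of 26 for SCD. Adjusted over these 6 pairs, the Pearson p was 0.000240 for SCD, 0.198 for FASN and at least 0.586 for the others, and the Spearman p was 0.00132 for SCD, 0.0261 for FASN and at least 0.176 for the others. Among clones with values in all pools, the median r over 27 pairs of positions with the same cDNA was 0.520. It was 0.0765 for any clones of the same block and 0.000119 for clones of different blocks. All 4 pairs of the regulators lay under the median of the 27. The pairs with SREBF1 in block 16 rest on 7 pools and are not among the 27.

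**Figure D3:**
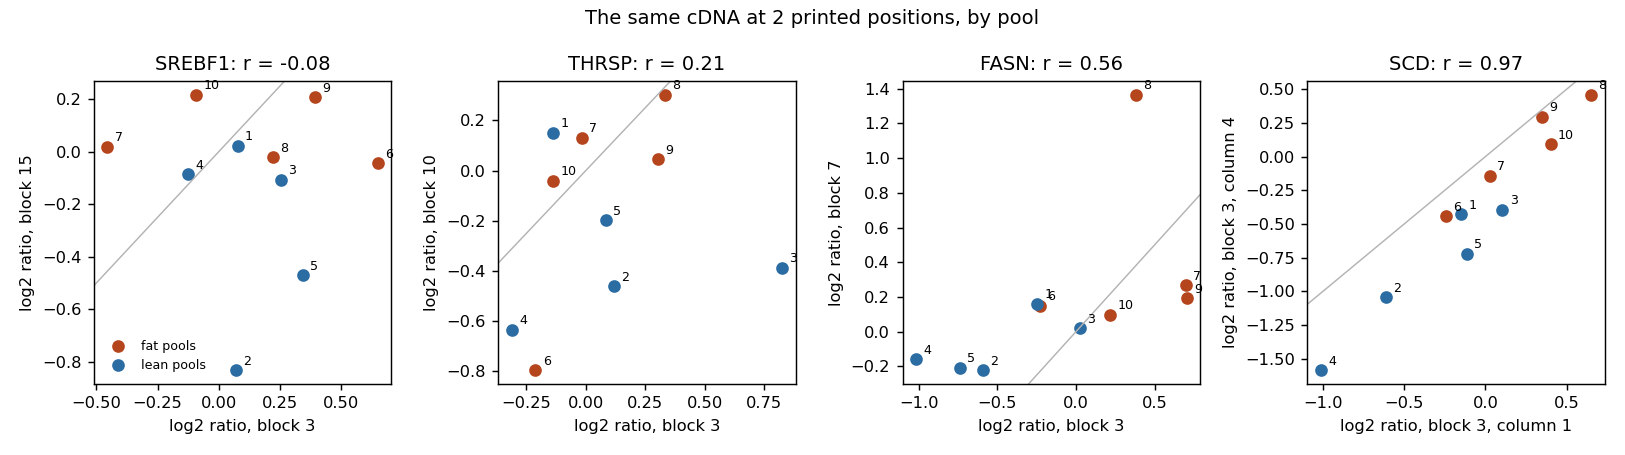
Log2 ratio of 10 pools at a printed position (x axis) and at another position of the same gene (y axis) for SREBF1, THRSP, FASN and SCD. The pool number is beside each point and the line of equality is grey. Positions were paired by gene symbol. The SCD positions follow each other with r of 0.97, while those of SREBF1 have r of -0.08 and those of THRSP 0.21.

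Repeat arrays of the same RNA show how far a value repeats. Between the first and the second array of a pool, SREBF1 had r of -0.0480 over 8 pools, NR1H3 0.195 over 7 and THRSP 0.396 over 10, given as descriptions. The enzymes had higher values, with 0.848 for ACACA, 0.75 for FADS2, 0.666 for FASN, 0.654 for SCD (9 pools) and 0.636 for ELOVL6, while PNPLA3 had 0.00982. The spread between arrays of a pool was 0.47, 0.38 and 0.53 for SREBF1 in blocks 3, 15 and 16, 0.39 for NR1H3, and 0.35 and 0.40 for THRSP in blocks 3 and 10 (pooled SD of log2 ratios). The spread between pool means of a line (SD of log2 ratios), 0.33, 0.27 and 0.36 for SREBF1, 0.38 for NR1H3 and 0.35 and 0.37 for THRSP, can be set against the error that these arrays leave in a pool mean. That error was 0.33, 0.28 and 0.44 for SREBF1 in blocks 3, 15 and 16, near or above the spread pooled over both lines. Taken by line, the SREBF1 pool means had SDs of 0.43 (fat) and 0.18 (lean) in block 3. They were 0.13 and 0.35 in block 15, and 0.14 and 0.45 in block 16, so 1 line exceeded the error at each position. The error was 0.28 for NR1H3, and 0.21 and 0.25 for THRSP in blocks 3 and 10, below the pooled spread of their pool means. Spread and error were not tested against each other.

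Whether pools of one line differed by more than their arrays could be tested only for positions filled on 2 or more arrays in each pool. Within the fat line 0 of 202 clones (0%) passed, and the regulators' limma adjusted p-values were 0.163 for THRSP in block 10, 0.619 for THRSP in block 3, 0.562 for SREBF1 in block 3 and 0.813 for SREBF1 in block 15. Within the lean line 1 of 189 clones (0.529%) passed. It was no regulator: THRSP had limma adjusted p-values of 0.121 in block 3 and 0.538 in block 10, and SREBF1 had too few arrays. NR1H3 and SREBF1 in block 16 could be tested in neither line.

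Across the 10 pools, 5 of 6 lipogenic targets lay within the first 8 genes by r for SREBF1 and within the first 15 for THRSP. Of 79 genes ordered by r, SCD, ELOVL6, FADS2, ACACA and FASN took places 2, 3, 5, 6 and 8 for SREBF1. For THRSP the order was ACACA, SCD, FASN, ELOVL6 and FADS2, at places 1, 2, 5, 12 and 15. For NR1H3 they were spread over places 9 to 55. The other target, PNPLA3, was at place 70 for SREBF1, 58 for NR1H3 and 61 for THRSP. Among the lean pools FASN, SCD and ACACA were each highest in pool 3 and lowest in pool 4, so their places are not separate results. There were 80 genes with a value in all pools, 6 of them lipogenic targets, so each regulator had 79 relations and there were 237 in all. Each regulator shares its arrays and reference with its targets, which is why r with all other genes is given beside. None of the 237 passed after adjustment (lowest adjusted permutation p = 0.404 for r and 0.416 for rho, n = 10 pools). Adjusted over the 18 relations with a lipogenic target alone, none passed either. The lowest adjusted permutation p was then 0.0580 for r and 0.0522 for rho.

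SREBF1 had a median r of 0.643 with the 6 targets, against 0.114 with all 79 genes. Its r was 0.743 with SCD (permutation p = 0.0122, adjusted 0.436, rho 0.624 with permutation p = 0.0607, adjusted 0.685). With ELOVL6 it was 0.706 (permutation p = 0.0106, adjusted 0.436, rho 0.794 with permutation p = 0.00886, adjusted 0.498). With FADS2 it was 0.672 (permutation p = 0.0266, adjusted 0.473, rho 0.794 with permutation p = 0.00886, adjusted 0.498).

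The remaining targets of SREBF1 had unadjusted p-values above 0.05. ACACA gave 0.615 (permutation p = 0.0588, adjusted 0.696, rho 0.564 with permutation p = 0.0967, adjusted 0.718), FASN 0.579 (permutation p = 0.0807, adjusted 0.797, rho 0.527 with permutation p = 0.122, adjusted 0.758) and PNPLA3 -0.411 (permutation p = 0.231, adjusted 0.858, rho -0.455 with permutation p = 0.192, adjusted 0.825). At an unadjusted p under 0.05 there were 7 of the 79 genes for SREBF1 (8.86%), 3 of them targets.

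These relations of SREBF1 rested in good part on lean pools 2 and 4, which had its lowest values and low enzymes too. Without those 2 pools, the farthest from its median, r was 0.386 with SCD, 0.448 with ELOVL6, 0.576 with FADS2, 0.302 with ACACA and 0.237 with FASN. With each line centred on its own mean, r was 0.529, 0.536, 0.522, 0.367 and 0.158 for the same enzymes. The permutation p-values above shuffled pools across lines, so they include a line difference that both genes share. The centred r was not tested. With 5 pools a line, an r within each line was not computed. Regulator and enzyme could also be taken from different arrays of a pool, which share RNA but no hybridisation, at the cost of using single arrays and 7 to 9 pools, without lean pool 4. The median r of SREBF1 with the 6 targets was then 0.144 and 0.346 for the 2 ways of pairing the first and second arrays, against 0.301 on the first and 0.179 on the second array alone. All these medians lay under the 0.643 of the pool means, but single targets differed. ELOVL6 had r of 0.678 and 0.577 on different arrays and 0.326 and 0.184 on shared ones. SCD had -0.105 and 0.305 on different arrays and 0.457 and 0.193 on shared ones. Whether a shared hybridisation adds to r was not tested.

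The positions of SREBF1 differed here as well. The median r with 7 positions of the enzymes (ACACA, FASN, SCD, ELOVL6 and FADS2) was 0.714 for block 16 over 7 pools, 0.519 for block 15 and 0.155 for block 3. All 7 were above 0 for blocks 15 and 16, and 6 of 7 for block 3, although 3 of the enzymes' positions lie in block 3 itself. PNPLA3, the remaining target, went the other way at all 3, with r of -0.299 in block 16, -0.458 in block 15 and -0.219 in block 3. With each line centred, however, r of PNPLA3 with SREBF1 averaged over positions was -0.00484. On shared single arrays it was 0.174 on the first and -0.352 on the second.

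THRSP had a median r of 0.570 with the 6 targets, against 0.0855 with all 79 genes. With ACACA r was 0.766 (permutation p = 0.0115, adjusted 0.436, rho 0.855 with permutation p = 0.00290, adjusted 0.416), the highest of the 79. With SCD it was 0.743 (permutation p = 0.0129, adjusted 0.436, rho 0.745 with permutation p = 0.0169, adjusted 0.502). With FASN it was 0.690 (permutation p = 0.0271, adjusted 0.473, rho 0.685 with permutation p = 0.0333, adjusted 0.641).

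ELOVL6 and FADS2 followed THRSP less closely. Their r was 0.449 (permutation p = 0.201, adjusted 0.858, rho 0.430 with permutation p = 0.217, adjusted 0.878) and 0.403 (permutation p = 0.249, adjusted 0.858, rho 0.345 with permutation p = 0.330, adjusted 0.895), and PNPLA3 gave -0.166 (permutation p = 0.634, adjusted 0.968, rho -0.358 with permutation p = 0.312, adjusted 0.895). Of 79 genes 7 had an unadjusted p under 0.05 with THRSP (8.86%), 3 of them targets.

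The relations of THRSP with FASN, SCD and ACACA were larger with the line difference taken out. With each line centred, r was 0.901 with FASN, 0.899 with SCD and 0.849 with ACACA. It was not larger with ELOVL6 (0.439) or FADS2 (0.375), and it was -0.0817 with PNPLA3. In the fat line pools 8 and 9 were high and pool 6 low in THRSP and in SCD, and in the lean line pool 3 was high and pool 4 low in THRSP and in all 3 enzymes. Without pools 4 and 6, the farthest from its median, r was 0.897 with ACACA, 0.765 with FADS2, 0.758 with FASN, 0.712 with SCD and 0.582 with ELOVL6, and it was -0.884 with PNPLA3.

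The THRSP relations were computed between arrays too. With THRSP from the first array and the enzymes from the second, r with the 5 enzymes lay between 0.340 and 0.446, and with THRSP from the second and the enzymes from the first between 0.70 and 0.797. The mean of both ways had a median of 0.570 over the 6 targets, and on shared single arrays the median was 0.384 on the first and 0.620 on the second array. In block 10, which holds none of the 7 enzyme positions, the median r with them was 0.650, and in block 3, which holds 3 of them, 0.363. With PNPLA3 r was -0.0521 in block 10 and -0.214 in block 3.

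A single array weighs on these values. On the third array of lean pool 4 THRSP read -1.20 and ACACA -1.07, each the lowest of 28 arrays, while its other arrays gave THRSP -0.16 and -0.06 and ACACA 0.16 and 0.01. Without that array r of THRSP was 0.706 with ACACA, 0.570 with FASN and 0.496 with SCD. Without fat pool 8 its r with FADS2 was 0.0642.

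**Figure D4:**
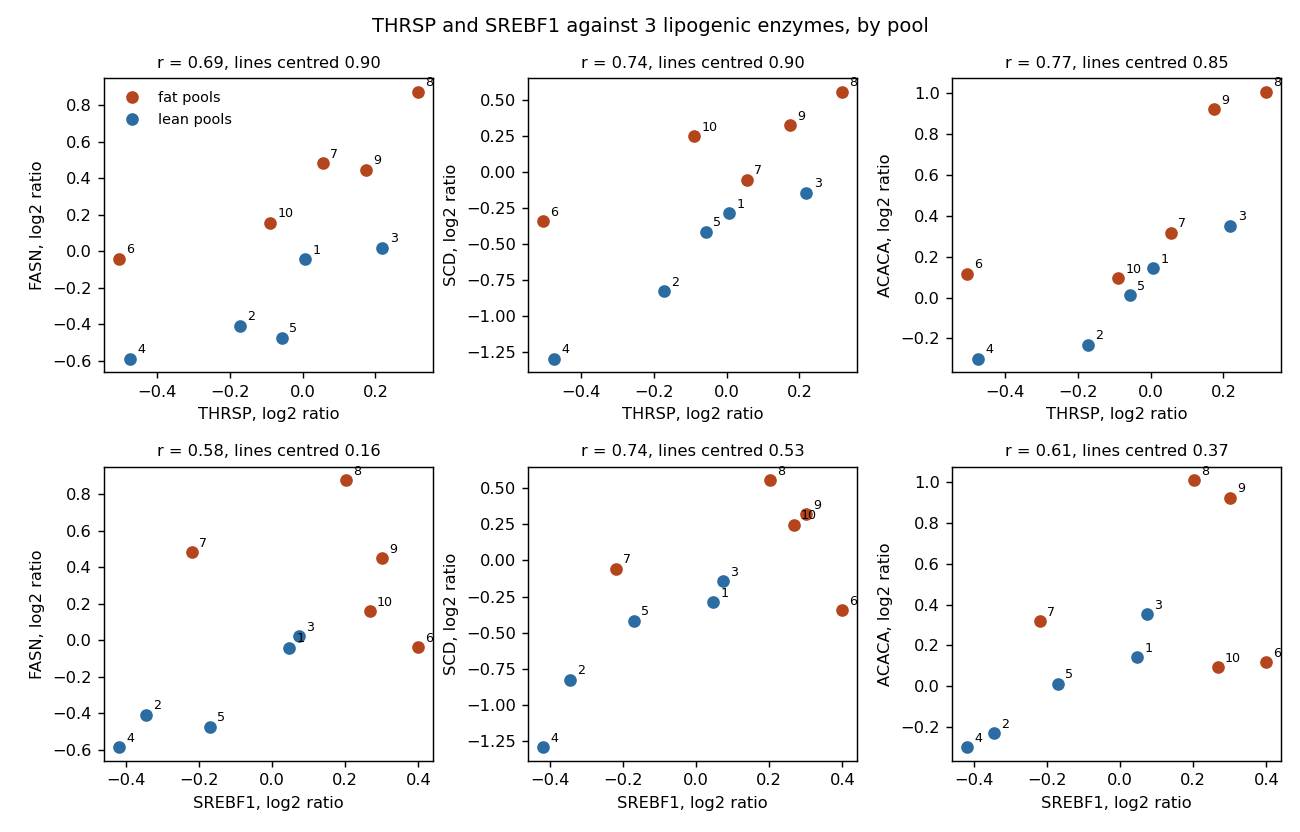
Log2 ratio of THRSP (upper row) and SREBF1 (lower row) on the x axis against FASN, SCD and ACACA on the y axis in 10 pools, with r over all pools and r with each line centred on its mean above each panel. Centring the lines gives 0.85 to 0.90 for THRSP and 0.16 to 0.53 for SREBF1.

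NR1H3 had a median r of 0.0853 with the 6 targets, against 0.00962 with all 79 genes. Its r was 0.396 with FASN (permutation p = 0.257, adjusted 0.858, rho 0.430 with permutation p = 0.218, adjusted 0.878), 0.265 with SCD (permutation p = 0.462, adjusted 0.968, rho 0.345 with permutation p = 0.330, adjusted 0.895) and 0.161 with ACACA (permutation p = 0.658, adjusted 0.968, rho 0.418 with permutation p = 0.232, adjusted 0.883). ELOVL6, FADS2 and PNPLA3 lay between -0.222 and 0.00962. At an unadjusted p under 0.05 there were 3 of 79 genes (3.8%) and 0 targets. Without pools 3 and 7, the farthest from its median, r with the 5 enzymes lay between 0.00935 and 0.377.

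The regulators themselves did not follow each other closely. SREBF1 and NR1H3, the receptor that induces it in mammals, had r of 0.166 (permutation p = 0.644, adjusted 0.968, rho 0.176 with permutation p = 0.632, adjusted 0.921). Their r was -0.142 without pools 2 and 4, the farthest for SREBF1, and 0.472 without pools 3 and 7, the farthest for NR1H3. SREBF1 and THRSP had r of 0.240 (permutation p = 0.495, adjusted 0.968, rho 0.176 with permutation p = 0.630, adjusted 0.921). Their r was -0.278 without pools 2 and 4, and 0.556 without pools 4 and 6, the farthest for THRSP. NR1H3 and THRSP had 0.310 (permutation p = 0.386, adjusted 0.964, rho 0.309 with permutation p = 0.387, adjusted 0.913). Their r was 0.0294 without pools 3 and 7, and 0.314 without pools 4 and 6.

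**Figure D5:**
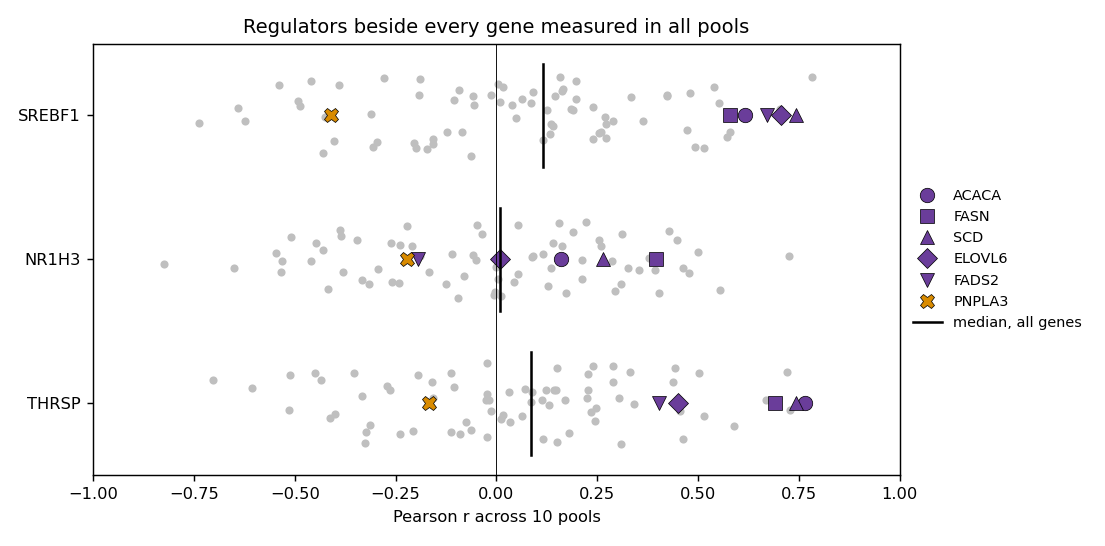
Pearson r across 10 pools (x axis) of SREBF1, NR1H3 and THRSP (y axis) with each of 79 genes, as grey points, with 6 lipogenic targets as large symbols and the median of all genes as a black bar. The 5 enzymes lie between 0.579 and 0.743 for SREBF1, between -0.194 and 0.396 for NR1H3 and between 0.403 and 0.766 for THRSP.

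The genes most like each regulator over the 10 pools, by Pearson r of gene values, were FBP1 (0.782), SCD (0.743) and ELOVL6 (0.706) for SREBF1. FBP1 is fructose-1,6-bisphosphatase, an enzyme of gluconeogenesis. For THRSP they were ACACA (0.766), SCD (0.743) and FH (0.728), the fumarase of the citric acid cycle. For NR1H3 they were PCK2 (0.726), the mitochondrial phosphoenolpyruvate carboxykinase, the liver glycogen synthase GYS2 (0.553), and the peptidase ERAP1 (0.498). Without pools 3 and 7 the r of NR1H3 with GYS2 was 0.0243.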

How the data were processed

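Per the labels' protocols, cDNA of poly(A)+ RNA took up amino-allyl dUTP and was then labelled, the pool with Cy5 and the common reference with Cy3, and dyes were not swapped. The table deposited by the authors holds 1 log2 ratio per spot and array. How spots were scanned, corrected, filtered and normalized is not given in the sources used here, nor is the log base, taken as 2 because values reach 14.01, or the direction. Array medians lay between -0.06 and 0.07, so arrays were taken as centred, and 36.7% of table cells were filled. Missing values were left missing. The checks of direction did not settle it. The mean log2 ratio and the variance between pools had a Spearman rho of 0.0772 over 297 clones. The mean linear ratio was nearer 1 as deposited in 112 of 232 clones with all pools.

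The 1728 spots were read as 576 clones of 3 spots. Symbols came from the platform annotation, and the 3 regulators matched current chicken gene entries. A clone's value is the mean of its spots, a pool's value the mean of its arrays, and a gene's value the mean of its printed positions. The fit in R 4.3.3 with limma 3.58.1 took the 297 clones, or 110 genes, that each line had in 3 or more pools. It used two-sided moderated statistics from eBayes with Benjamini-Hochberg, called at an adjusted p under 0.05. Its p-values measure the spread between the values of pools of 4 chickens, which includes array error. Pools within a line were compared by limma's F test on arrays. The share of filled spots was tested by exact permutation of 10 pools, whose smallest p is 0.00794. Correlations used 100000 resamples of the 10 pools without regard to line, adjusted over 237 relations. Adjusted over the 18 relations of a regulator with a target, 0 passed as well. Correlations over 7 pools were enumerated exactly. The code was tested on simulated data. Precision is limited by the number of arrays, with 450 to 741 filled spots each.

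The members, gene lists, tests and alternatives were chosen with earlier results of these data known. Genes named were the regulators, all measured genes of the lists and, for each regulator, the 3 genes with the highest r. Alternatives covered arrays as observations with and without a replicate block, medians over spots or arrays, the first or second array, other normalizations, filters and each pool left out. Different arrays, single positions and single pools left out in the correlations, printing block medians and leaving out the third array of pool 4 were added after seeing the data.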

Additional observations from a re-analysis of the deposited data

Results flagged for a closer look

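Of 35 groups of 5 or 4 pools examined for a pool far from the others, 2 had one, and chance gives about 1 in 20. In the fat line ELOVL6 read 0.597 in pool 9, while the other fat pools lay between -0.107 and 0.0322. In the lean line TALDO1 read 0.393 in pool 5, while the other lean pools lay between -0.107 and -0.080. No pool of SREBF1, NR1H3 or THRSP stood apart in this way at any of the positions examined.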

How the results depend on the processing

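No fat minus lean difference of SREBF1, NR1H3 or THRSP passed under any alternative run. The lowest limma adjusted p-values were 0.25 for SREBF1 (0.142 for its position in block 16), 0.497 for THRSP (0.348 in block 10) and 0.659 for NR1H3. Those of THRSP came from second arrays, where block 10 had no value for fat pool 6. The sign of the small differences was not stable. With first arrays SREBF1 was at -0.050, with no value for lean pools 4 and 5, and THRSP was at -0.056. With second arrays NR1H3 was at -0.10, with no value for fat pool 7 and lean pool 4. THRSP was at -0.026 with medians of arrays and at -0.063 with its fullest position. SREBF1 in block 3 was at -0.18 with first arrays (without fat pool 6 and lean pools 4 and 5), -0.045 with medians of arrays, -0.074 with the printing block median subtracted and -0.043 without the third array of pool 4, and THRSP in block 3 was at 0.021 with the second array. With each pool left out in turn, THRSP ranged from -0.0091 to 0.21, NR1H3 from -0.034 to 0.26, SREBF1 in block 3 from -0.11 to 0.17 and THRSP in block 3 from -0.17 to 0.11. SREBF1 as a gene and in blocks 15 and 16, and THRSP in block 10, kept their sign with each pool left out, except that block 16 could not be tested without fat pool 6, 8 or 10. Other causes were not tested.

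Clones called numbered 5 with arrays as observations and 6 with a replicate block on the array number, against 0 with pools. The fits on arrays have more observations and also model arrays of a pool as correlated, and the source of the added calls was not tested. With the replicate block SREBF1 was at 0.27, NR1H3 at 0.04 and THRSP at 0.11, and SREBF1 in block 16 at 0.45, against 0.97. Arrays of different pools share only a number: their deviations had a median r of -0.0481 with the same number and -0.0565 with different numbers. Without values beyond 5, 2 clones were called within the lean line, against 1. The median r with the 6 targets was 0.187 for SREBF1 on different arrays, against 0.643 with pool means, but this setting also used single arrays and fewer pools, and r on shared single arrays was 0.301 and 0.179. For NR1H3 the median r ranged from -0.021 to 0.348 with a pool left out. Missing spots, 1 dye orientation and pools that hide single chickens limit every value.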
